A study of Mus musculus with 4 samples.

Results

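The translation initiation factors described here were all non-control array probes whose gene name began with EIF and a digit from 1 to 6, apart from the eIF2 kinases, whose names begin with EIF2AK. There were 79 such probes among the 41000 on the array, and they stood for 43 of 31090 genes and unnamed features. All 43 genes and 77 of the 79 probes were bright enough to be tested, the exceptions being the second probe of EIF2C4 and the third probe of EIF3S5. The rule used gene names alone.

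RNA was taken from H460, an established line of human lung carcinoma, treated for 4 h with 250 µM farnesol (FOH), an isoprenoid alcohol, or with vehicle (dimethyl sulphoxide, DMSO). The organism label says mouse, whereas the protocols name this human line and gene names on the array are human. The experiment was done in duplicate, and each farnesol RNA was hybridised with its matched vehicle RNA on 2 arrays with the dyes exchanged, giving 4 arrays and n = 2 replicates. The cells were of a single line, and no allele or other agent is named for either group. The series title concerns apoptosis caused by farnesol and the stress response of the endoplasmic reticulum, and the comparison was of farnesol with vehicle.

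Translation begins when eIF2 brings the initiator tRNA to the small ribosomal subunit, which eIF3, eIF1A and eIF5 help to assemble for scanning. The eIF4 proteins bind the messenger's cap and unwind its leader, and the eIF4E binding proteins compete with the scaffold eIF4G for the cap-binding protein eIF4E. eIF2B reloads eIF2 with GTP, a step that phosphorylation of the alpha subunit of eIF2 blocks during stress of the endoplasmic reticulum. The array's names are old: the EIF3S genes encode eIF3 subunits now called EIF3A to EIF3L, and EIF2C1 to EIF2C4 are the Argonaute genes AGO1 to AGO4, which act with small RNAs rather than in initiation.

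In each channel 82.7% to 92.98% of spots lay well above background and 19 to 51 were saturated, and no spot of an initiation factor was saturated or outlying. Ratios of the dye-swapped arrays of a replicate correlated across features at r = 0.943 and 0.942, and those of arrays from different replicates at 0.633 to 0.684. All 6 epithelial or carcinoma markers were well above background on every array. So were 5 of 6 leukocyte, 3 of 5 fibroblast and 2 of 3 endothelial markers, the exceptions being CD3D, PDGFRB, POSTN and PECAM1. Their part in the results was not tested, and a probe above background may carry signal of other transcripts.

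Most initiation factor genes had lower ratios with farnesol, by small amounts, and EIF4A2 stood out in the other direction. The mean log2 ratio of farnesol over vehicle was below 0 in 35 of the 43 genes, a direction that 44.2% of all 28594 tested features had. It was below 0 on all 4 arrays in 22 genes, against 21.8% of all features, and above 0 on all 4 arrays in 4 genes, against 20.9%. Counted by replicate means, 23 genes were below 0 in both replicates, against 30.1% of all features, and 4 were above 0 in both, against 35.4%. The median log2 ratio over the 43 genes was -0.24, with quartiles of -0.40 and -0.05, and that over all tested features was 0.01. These are amounts of RNA in a culture, and fewer cells of a kind cannot be told apart from less RNA per cell.

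No initiation factor passed the threshold of 0.05 for limma's adjusted p (Benjamini-Hochberg over all features), where 0.0105% of features passed as higher and 0% as lower. The lowest adjusted p in limma was 0.179, for EIF4A2. At an unadjusted limma p under 0.05, 1 initiation factor was higher and 13 were lower, against 3.71% and 10.8% of all features. By size, EIF4A2 was at least 1.5-fold higher in both replicates and on all 4 arrays, as were 1.26% of features, and EIF3S9, EIF4ENIF1 and EIF4E were at least 1.5-fold lower, as were 1.43%. EIF4E was no longer among them with the mean of its 4 probes, which was -0.36. At 2-fold, EIF4A2 remained among the higher genes, with 0.657% of features, and EIF3S9 among the lower ones, with 0.238%.

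**Figure D1:**
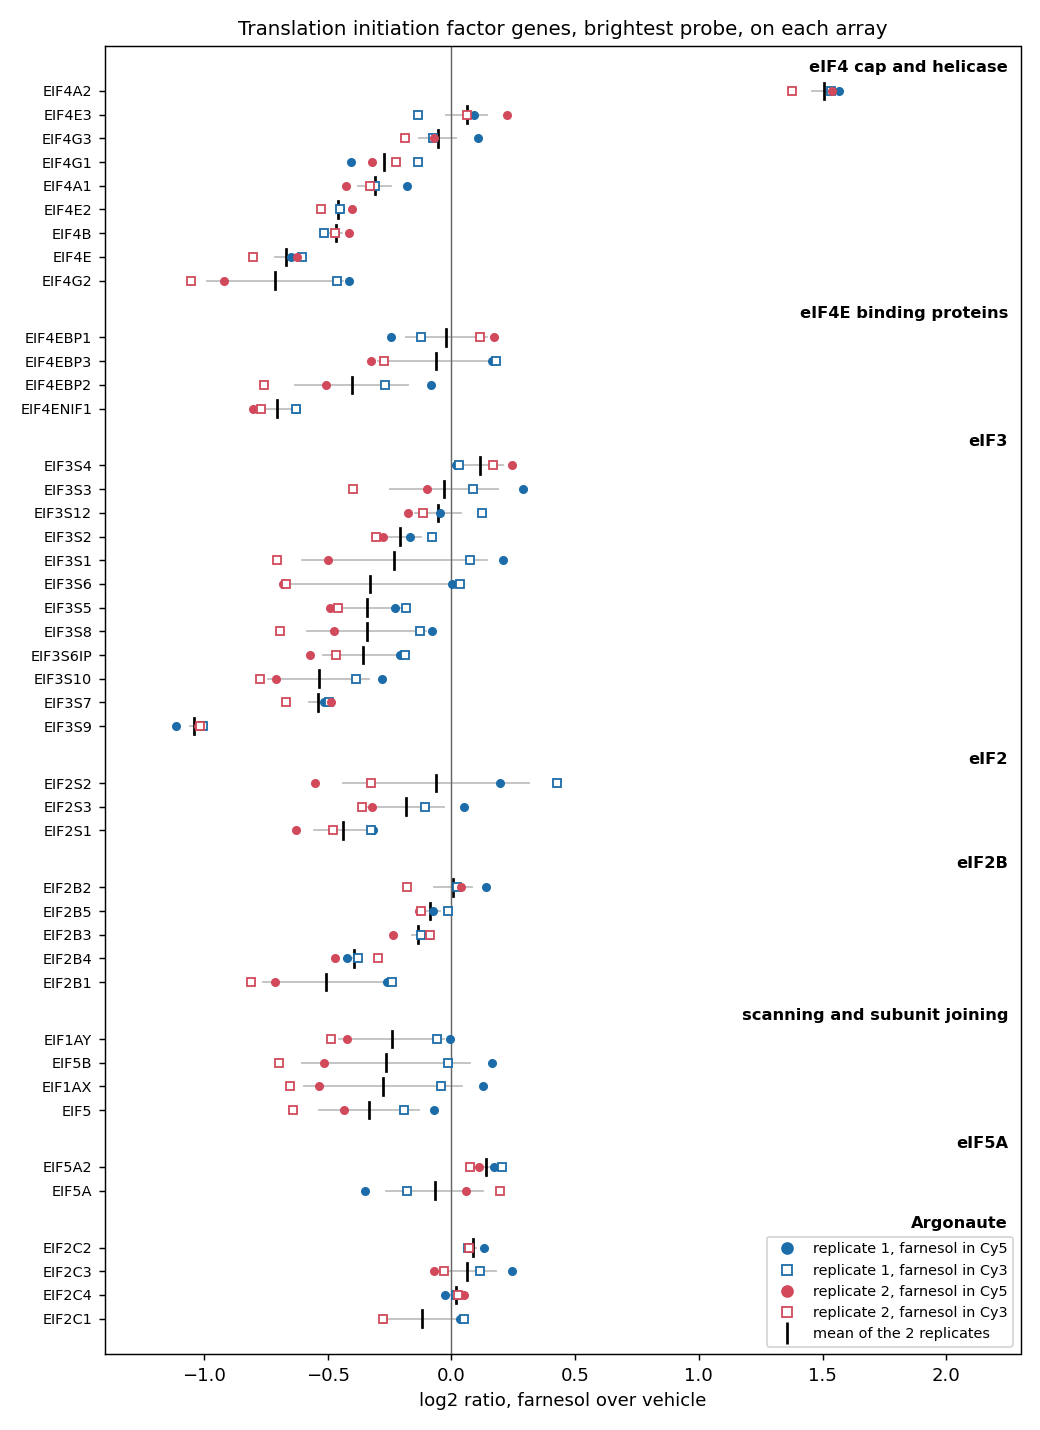
Log2 ratio of farnesol over vehicle for each of the 43 initiation factor genes (brightest probe), grouped by complex. Points are the 4 arrays (circles with farnesol in Cy5, squares with farnesol in Cy3), grey lines join the 2 replicate means, and black bars are the means of both. EIF4A2 lies alone near 1.5, EIF3S9 is the lowest at -1.04, and most other genes lie between -0.7 and 0.2.

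The genes of the cap-binding and helicase group diverged most. EIF4A2 encodes an RNA helicase of the cap-binding complex, close in sequence to that of EIF4A1. Its probe had a processed brightness of 52057 and 40673 with farnesol in replicate 1 and of 44203 and 31917 in replicate 2, against 16638, 13518, 14175 and 11531 with vehicle. Every farnesol value was above every vehicle value. The share of all features that separate in this way was not counted. Such separation is therefore only a description, for this gene and for those below. The log2 ratio was 1.57 and 1.54 on the arrays of replicate 1 and 1.54 and 1.38 on those of replicate 2. Its mean was 1.505 ± 0.067 (SD, n = 2), 2.84-fold, with an adjusted limma p of 0.179. The 95% interval from limma's moderated error, not adjusted over features, was 1.304 to 1.705.

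EIF4A1 had the opposite sign on all 4 arrays. Its log2 ratio was -0.18 and -0.31 in replicate 1 and -0.42 and -0.33 in replicate 2, a mean of -0.31 ± 0.09 (SD, n = 2), with an adjusted limma p of 0.262. EIF4A2 therefore exceeded EIF4A1 by 1.80 in replicate 1 and 1.83 in replicate 2 on the log2 scale, a difference of 1.81 ± 0.03 (SD, n = 2) or 3.52-fold between the genes' ratios. This difference was not tested. Probes of such similar genes can hybridise with each other's transcripts, which the files do not resolve.

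EIF4E, which encodes the cap-binding protein, had log2 ratios of -0.65 and -0.60 in replicate 1 and -0.62 and -0.80 in replicate 2. Its brightness on the 4 arrays was 7489, 6163, 6500 and 4672 with farnesol and 11665, 9411, 9894 and 8279 with vehicle. The groups did not overlap, which was not compared with all features. The mean was -0.67 ± 0.06 (SD, n = 2), 1.59-fold lower, with an adjusted limma p of 0.191. EIF4E2, which encodes a related cap-binding protein, had a mean of -0.46 ± 0.01, and EIF4E3, another such gene, had 0.06 ± 0.12 (SD, n = 2 each). EIF4E and EIF4E2 differed by 0.21 ± 0.05 on the log2 scale.

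The scaffold gene EIF4G1 averaged -0.27 ± 0.0023 over replicates (SD, n = 2), but its dye-swapped arrays gave -0.41 and -0.13 in replicate 1 and -0.32 and -0.22 in replicate 2, so the replicates' closeness does not measure its error. EIF4G2 encodes a scaffold-like protein that lacks the part of eIF4G binding eIF4E. It had log2 ratios of -0.41 and -0.46 in replicate 1 and -0.92 and -1.05 in replicate 2, a mean of -0.71 ± 0.39 (SD, n = 2), with an adjusted limma p of 0.286. All its farnesol values, from 13413 to 24069, were below all its vehicle values, from 25842 to 31137, and the replicates differed by 0.55. EIF4G3, another scaffold gene, averaged -0.06 ± 0.10. EIF4B, which encodes a cofactor of the helicase, averaged -0.47 ± 0.03 and was lower on all 4 arrays (SD, n = 2 each).

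**Figure D2:**
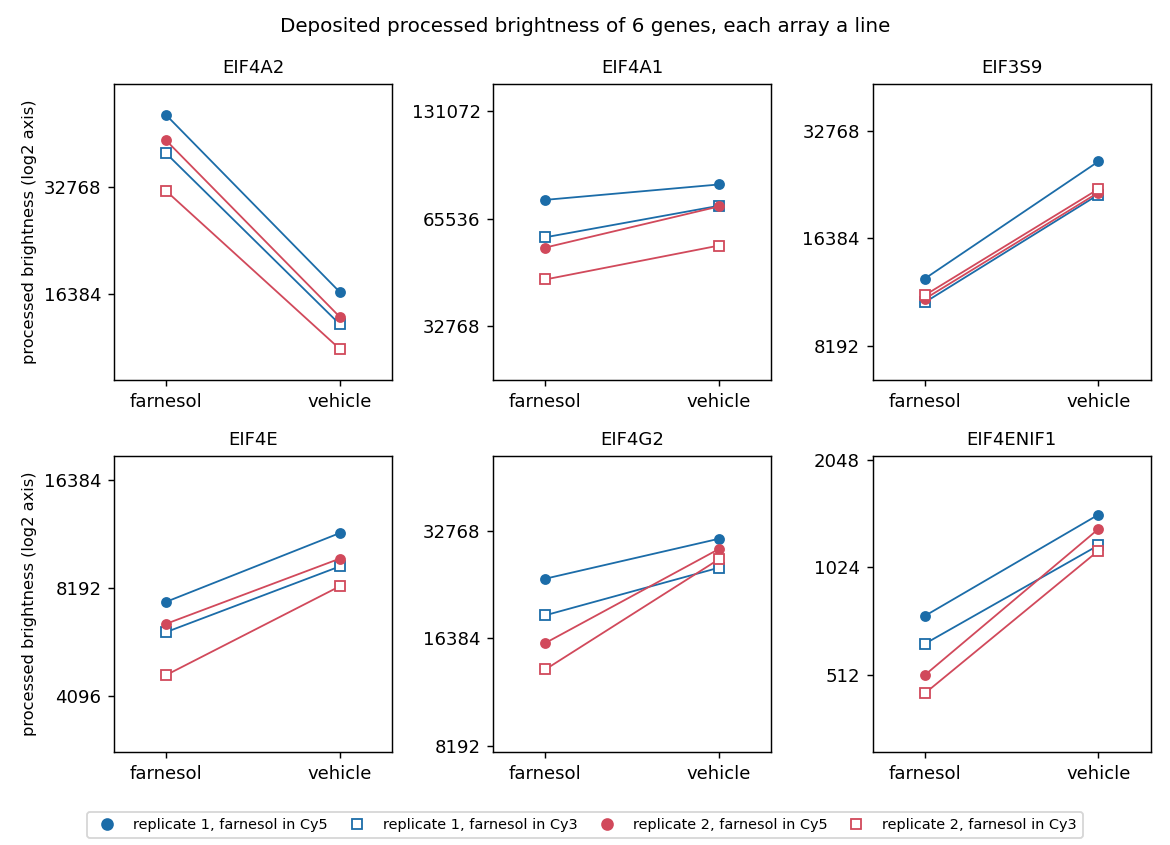
Deposited processed brightness (log2 axis, arbitrary scanner units) with farnesol at the left and vehicle at the right, for the brightest probe of 6 genes. Each line is 1 array, with replicate 1 in blue and replicate 2 in red. Every line of EIF4A2 falls towards vehicle and every line of the other 5 genes climbs towards vehicle, least steeply for EIF4A1.

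Among the eIF4E binding proteins, EIF4ENIF1, which encodes the protein that carries eIF4E into the nucleus, had the lowest ratio. Its brightness was 748, 625, 511 and 454 with farnesol and 1436, 1179, 1309 and 1139 with vehicle, again without overlap. The log2 ratios were -0.63 on both arrays of replicate 1 and -0.80 and -0.77 in replicate 2, a mean of -0.71 ± 0.11 (SD, n = 2) or 1.63-fold lower, with an adjusted limma p of 0.191. This was a dim probe, which the background offset pulls towards 0, and the mean was -1.07 without the offset and -1.14 with the scanner software's processed signals.

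The 3 genes for the translational repressors 4E-BP1 to 4E-BP3 showed no common direction. EIF4EBP1 had log2 ratios of -0.25 and -0.12 in replicate 1 and 0.17 and 0.11 in replicate 2, a mean of -0.02 ± 0.23. EIF4EBP3 turned the other way, with 0.16 and 0.18 in replicate 1, -0.32 and -0.27 in replicate 2 and a mean of -0.06 ± 0.33. EIF4EBP2 was below 0 on every array at its brightest probe, with -0.08 and -0.27 in replicate 1 and -0.51 and -0.76 in replicate 2. Its mean was -0.40 ± 0.32 (SD, n = 2 each). The other probes of EIF4EBP2 gave -0.61 and -0.05, the last with -0.14 in replicate 1 and 0.05 in replicate 2. The adjusted limma p of the 3 genes was 0.950, 0.883 and 0.410 in that order of naming.

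The eIF3 complex, the scaffold that joins the small ribosomal subunit to the cap-bound messenger, held the lowest of all the genes. Of its 12 genes matched by the name rule, 11 had a mean below 0 and 7 were lower on all 4 arrays. Of all features, 44.2% and 21.8% were so. The median log2 ratio of the 12 genes was -0.33. A further eIF3 gene, GA17 (now EIF3M), lay outside the name rule and had 0.06 in replicate 1 and -0.72 in replicate 2. EIF3S9 encodes the core subunit eIF3b. Its brightness was 12613, 10828, 11075 and 11337 with farnesol and 26847, 21681, 21972 and 22476 with vehicle, and no farnesol value came near a vehicle value. The log2 ratios were -1.11 and -1.004 in replicate 1 and -1.02 on both arrays of replicate 2. Their mean was -1.04 ± 0.03 (SD, n = 2) or 2.05-fold lower, with an adjusted limma p of 0.191. The 95% interval from limma's moderated error, not adjusted over features, was -1.22 to -0.86.

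EIF3S7, the gene of the cap-contacting subunit eIF3d, had log2 ratios of -0.51 and -0.50 in replicate 1 and -0.49 and -0.67 in replicate 2. Its mean was -0.54 ± 0.05 (SD, n = 2), with an adjusted limma p of 0.191, and its other tested probe gave -0.41. EIF3S10, the gene of the large core subunit eIF3a, was at -0.28 and -0.38 in replicate 1 and -0.71 and -0.77 in replicate 2. Its mean was -0.54 ± 0.29 (SD, n = 2). EIF3S6IP, EIF3S8, EIF3S5 and EIF3S2 were also lower on all 4 arrays, with means from -0.36 to -0.21. The means of EIF3S6 (-0.33) and EIF3S1 (-0.23) were lower through replicate 2 alone, where they had -0.67 and -0.60, against 0.02 and 0.14 in replicate 1. EIF3S12 and EIF3S3 were close to 0, at -0.05 and -0.03. EIF3S4, the gene of subunit eIF3g, was the only eIF3 gene above 0 on all 4 arrays, with 0.02 and 0.03 in replicate 1, 0.25 and 0.17 in replicate 2 and a mean of 0.12 ± 0.13 (SD, n = 2), which was -0.111 with arrays centred on the median in place of loess.

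The genes of eIF2, which delivers the initiator tRNA, differed among themselves. EIF2S1, which encodes the alpha subunit that the stress kinases phosphorylate, had log2 ratios of -0.32 on both arrays of replicate 1 and -0.63 and -0.48 in replicate 2, a mean of -0.44 ± 0.17 (SD, n = 2), with an adjusted limma p of 0.249. Its dimmer probe gave -0.14. EIF2S2, the gene of the beta subunit, had 0.20 and 0.43 in replicate 1 and -0.55 and -0.32 in replicate 2, so its mean of -0.06 ± 0.53 joins opposite values. This was the widest gap between replicates among the 43 genes at their brightest probes, at 0.75. The dimmer probe of EIF2S2 did not show it, with -0.05 in replicate 1 and -0.08 in replicate 2. EIF2S3, the gene of the GTP-binding gamma subunit, had 0.05 and -0.11 in replicate 1 and -0.32 and -0.36 in replicate 2, a mean of -0.18 ± 0.22 (SD, n = 2 each).

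The genes of eIF2B, the exchange factor that reloads eIF2, had a median of -0.13. Of the 5 genes, 4 were lower on all 4 arrays, against 21.8% of all features. EIF2B1, the gene of the regulatory alpha subunit, had log2 ratios of -0.26 and -0.24 in replicate 1 and -0.71 and -0.81 in replicate 2, a mean of -0.51 ± 0.36. EIF2B4, the gene of the delta subunit, had -0.42 and -0.38 in replicate 1 and -0.47 and -0.30 in replicate 2, a mean of -0.39 ± 0.01 with an adjusted limma p of 0.200. Its probe was also dim, and the mean was -0.56 without the offset and -0.60 with the scanner software's processed signals. The other 3 genes lay close to 0. EIF2B3, for the gamma subunit, had -0.09 and -0.12 in replicate 1 and -0.23 and -0.09 in replicate 2, a mean of -0.13 ± 0.04. EIF2B5, for the catalytic epsilon subunit, had -0.08 and -0.01 in replicate 1 and -0.13 and -0.12 in replicate 2, a mean of -0.08 ± 0.06. EIF2B2, for the beta subunit, had 0.14 and 0.02 in replicate 1 and 0.04 and -0.18 in replicate 2, a mean of 0.01 ± 0.11 with arrays on both sides of 0 (SD, n = 2 each).

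The 4 genes of scanning and subunit joining that the name rule matched were near 0 in replicate 1 and lower in replicate 2. The gene of eIF1, named SUI1 on the array and so outside the rule, had 0.36 in replicate 1 and 0.06 in replicate 2. EIF5, which encodes the activator of eIF2's GTP hydrolysis, had log2 ratios of -0.07 and -0.19 in replicate 1 and -0.43 and -0.64 in replicate 2, a mean of -0.33 ± 0.29. EIF1AX had 0.13 and -0.04 in replicate 1 and -0.53 and -0.65 in replicate 2, a mean of -0.28 ± 0.45. EIF1AY, which encodes a nearly identical protein, averaged -0.24 ± 0.30, and its probe may share signal with EIF1AX (SD, n = 2 each).

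EIF5B encodes the GTPase that joins the ribosomal subunits, and its single probe was printed in 10 spots on every array, which gives a measure of spot error. Its log2 ratio was 0.16 ± 0.04 and -0.01 ± 0.03 on the arrays of replicate 1, and -0.51 ± 0.04 and -0.70 ± 0.06 on those of replicate 2 (SD over 10 spots each). Within an array the 10 spots spanned at most 0.19, from -0.78 to -0.59 on 1 array of replicate 2. The array means of a dye swap differed by 0.18 in each replicate, and the replicates by 0.68. Over replicates the mean was -0.26 ± 0.48 (SD, n = 2), with an adjusted limma p of 0.640.

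The eIF5A genes and the Argonautes had ratios near 0. EIF5A, whose protein carries the modified residue hypusine and acts mainly in elongation, averaged -0.07 ± 0.28, with replicates of opposite sign. EIF5A2, its paralog, was above 0 on all 4 arrays, at 0.17 and 0.20 in replicate 1 and 0.11 and 0.08 in replicate 2, a mean of 0.14 ± 0.07, with an adjusted limma p of 0.467. EIF2C2, the gene of the slicing Argonaute, had 0.13 and 0.07 in replicate 1 and 0.07 on both arrays of replicate 2, a mean of 0.09 ± 0.02, which was -0.0420 with arrays centred on the median. EIF2C3 had 0.25 and 0.11 in replicate 1 and -0.07 and -0.03 in replicate 2, a mean of 0.07 ± 0.16 with replicates of opposite sign. Of the other Argonautes, EIF2C4 averaged 0.02 ± 0.03 and EIF2C1 -0.12 ± 0.23 (SD, n = 2 each). Without these 6 genes and the 4 eIF4E binding proteins, the median over the remaining 33 genes was -0.28. Of these 33 genes, 29 had a mean below 0, against 44.2% of all features.

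The replicates gave the shift in different sizes. The median over the 43 genes was -0.10 in replicate 1 and -0.38 in replicate 2, while the median of all features was 0.01 in each. The ratio was lower in replicate 2 than in replicate 1 for 35 of the 43 genes, against 48.8% of all features. The eIF3 genes had medians of -0.11 and -0.55 in replicates 1 and 2, and the scanning and joining genes 0.01 and -0.56. For the eIF4 group they were -0.27 and -0.38, and for eIF2B -0.11 and -0.16. Across the 43 genes the median gap between dye-swapped arrays was 0.06 in replicate 1 and 0.10 in replicate 2, and the median gap between replicates was 0.23. Across the genes, which share the same 4 arrays, the replicates correlated at r = 0.758.

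**Figure D3:**
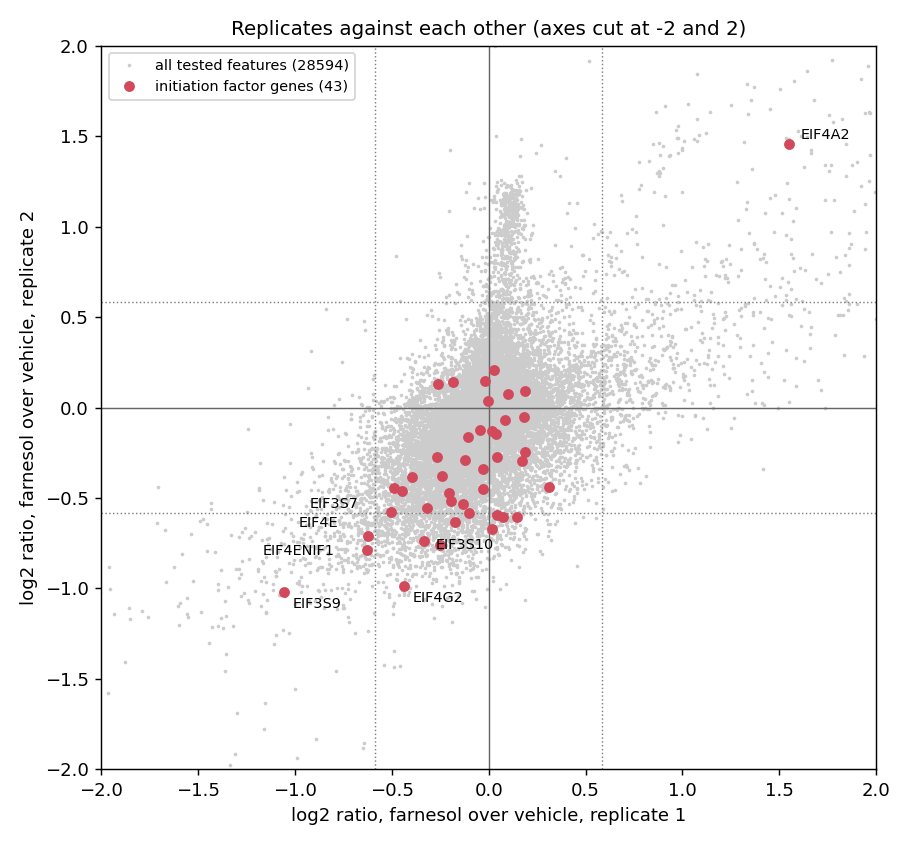
Log2 ratio of farnesol over vehicle in replicate 1 (x axis) against replicate 2 (y axis), for the 43 initiation factor genes (red) over all 28594 tested features (grey), with both axes cut at -2 and 2. Dotted lines mark 1.5-fold. EIF4A2 lies at 1.55 and 1.46, EIF3S9 at -1.06 and -1.02, and no red point lies in the grey column of features that were high in replicate 2 and near 0 in replicate 1.

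Initiation factors were among the brighter features of the array. The median initiation factor lay at percentile 88 of brightness among tested features. The 22 genes at or above the median brightness of the 43 had a median log2 ratio of -0.33, and the 3420 features of the whole array at or above that brightness had -0.03. Of these 22 genes, 20 had a mean below 0, 14 were lower on all 4 arrays, 2 were at least 1.5-fold lower and 1 higher. Of the 3420 features, 1803, 1192, 134 and 149 were so, in that order. Each is a larger share than that of all tested features given above. The 21 dimmer genes had -0.08, and the dimmer features of the array 0.02.

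Different probes of a gene mostly had the same sign. Of 21 genes with more than 1 tested probe, 13 had all probes below 0, 2 had all above 0 and 6 were mixed. The median range between probes of a gene was 0.13. The same counts were not made over all genes of the array, so they are only a description. The 4 probes of EIF4A1 gave -0.31, -0.34, -0.33 and -0.22, and the 5 probes of EIF4B gave -0.47, -0.27, -0.67, -0.32 and -0.20. Both genes thus had lower ratios at every probe.

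EIF4A2 was the only gene whose probes differed by 1 or more. Its probes gave 1.505, 0.94 and 0.04. The second was 0.86 in replicate 1 and 1.02 in replicate 2, and the third, with a processed brightness of 512 to 869 with farnesol and 515 to 847 with vehicle, differed little between the groups. The mean of the 3 probes was 0.83. The first 2 probes of EIF4E after the one described gave -0.48 and -0.37, and the remaining probe, well above background on 3 arrays in the farnesol channel and 2 in the vehicle channel, gave 0.09. For EIF5 the other probes gave -0.07 and 0.28, the last with -0.16 in replicate 1 and 0.72 in replicate 2, so its direction rests on the probe chosen.

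**Figure D4:**
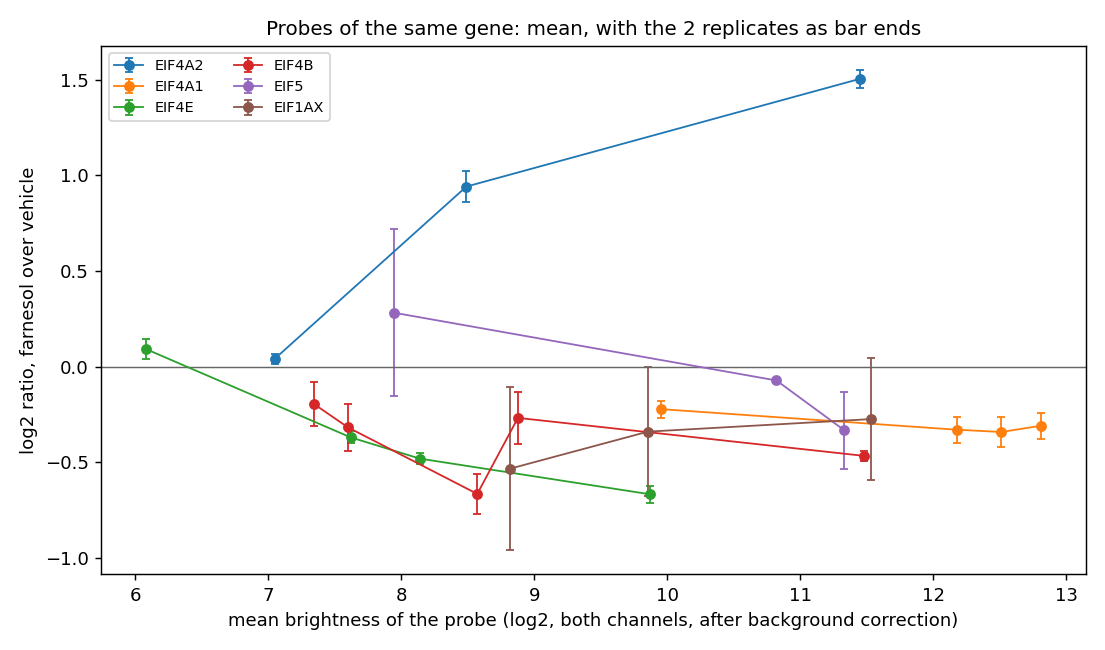
Log2 ratio of farnesol over vehicle (y axis, mean of the 2 replicates, with the replicates as bar ends) of each tested probe against its own mean brightness (x axis, log2), for 6 genes with several probes. Brightness also depends on the probe, so positions along the x axis are no levels of the transcripts. All EIF4A1 and EIF4B probes lie below 0, and the EIF4A2 probes spread from 0.04 to 1.505.

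The authors' deposited table listed 23 probes of 15 initiation factor genes. It gave 20 of them, 25.3% of the 79 probes, as lower with farnesol, and 3, or 3.80%, as higher. Of all probes on the array, the authors' deposited table listed 9.89% as lower and 7.23% as higher. The authors' deposited table holds 7018 probes with a p-value of at most 0.001 and followed replicate 1 (r = 0.9999 across probes, against 0.832 for replicate 2), so it is no further measurement. Its ratio of farnesol over vehicle was 3.07 and 2.00 for the first 2 EIF4A2 probes, 0.485 for EIF3S9 and 0.525 for EIF4ENIF1 in the authors' deposited table. All 5 EIF4B probes and 3 of the 4 EIF4E probes were in the authors' deposited table as lower.

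Initiation factors that the array names in other ways also had ratios mostly below 0. Of 21 such names tested, 1 (NAT1) belongs on this array to an N-acetyltransferase, and the other 20 had a median of -0.14. Of these 20 genes, 18 had a mean below 0, against 44.2% of all features, and none passed limma's adjusted threshold. DDX3X, the gene of a helicase that assists scanning, was the only gene of this list at least 1.5-fold lower, with a mean of -0.87 ± 0.15, though its other probes gave -0.83, -0.18 and 0.22. WBSCR1, now EIF4H, a helicase cofactor, averaged -0.49 ± 0.23. The 2 genes above 0 were SUI1, the gene of eIF1, with a mean of 0.21 ± 0.22, and DDX3Y with 0.25 ± 0.70 (SD, n = 2 each). DDX3Y had replicates of opposite sign, at 0.74 and -0.25.

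In the list of kinases, phosphatases and cofactors that act on eIF2 alpha, 14 genes were tested, the median was -0.26 and none passed limma's adjusted threshold. PPP1R15A (GADD34), the subunit that directs a phosphatase to eIF2 alpha, was at least 1.5-fold higher, with log2 ratios of 2.13 in replicate 1 and 1.74 in replicate 2 and a mean of 1.94 ± 0.27. GCN1L1, the activator of the kinase GCN2, was at least 1.5-fold lower, at -1.30 and -1.69 in replicates 1 and 2, a mean of -1.49 ± 0.27 (SD, n = 2 each). EIF2S1, the substrate, had its mean of -0.44 beside these.

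In the list of mTOR and MAP kinase signalling to eIF4E and its binding proteins, 26 genes were tested, the median was -0.08 and none passed limma's adjusted threshold. DDIT4 and SESN2, which encode inhibitors of mTOR complex 1, were at least 1.5-fold higher, with means of 2.10 ± 1.23 and 1.22 ± 0.36. DDIT4 had 2.98 in replicate 1 and 1.23 in replicate 2 (SD, n = 2 each).

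Of 21 elongation and release factors, with a median of -0.11, 3 were at least 1.5-fold lower and none passed limma's adjusted threshold. ABCE1, which encodes the protein that splits ribosomes after termination, averaged -1.17 ± 0.25, and GFM1, for a mitochondrial elongation factor, -0.91 ± 0.09. HBS1L, for a ribosome rescue factor, averaged -1.05 ± 0.20 from 3 arrays, since an outlying spot was left out in replicate 1, and its other probe gave 0.08. Of 14 small RNA partners of the Argonautes, with a median of -0.11, none passed that threshold and 1 was at least 1.5-fold lower, GEMIN4 with -0.92 ± 0.11. DICER1, the gene of the enzyme that makes small RNAs, averaged -0.46 ± 0.40 (SD, n = 2 each). Over all features the median was 0.01, with the shares of 1.26% higher and 1.43% lower given for the initiation factors.

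**Figure D5:**
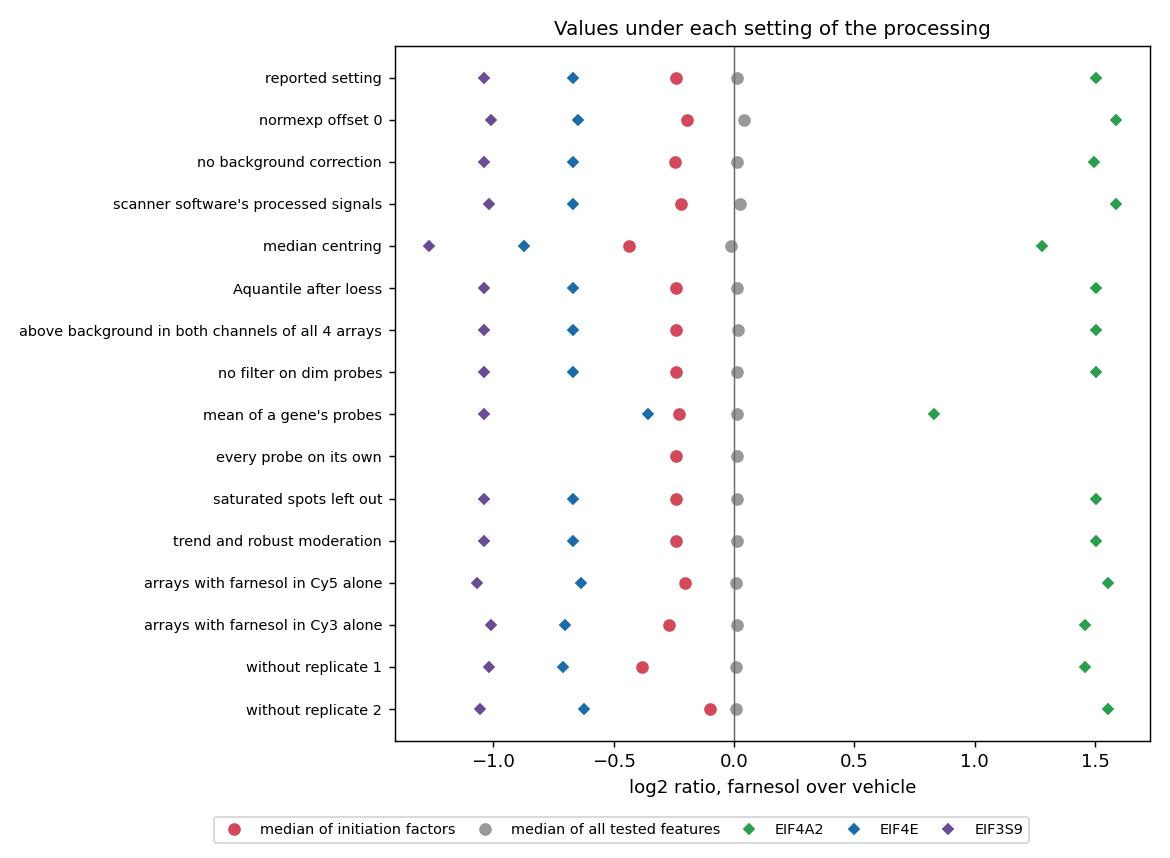
Median log2 ratio of farnesol over vehicle (x axis) of the initiation factors (red) and of all tested features (grey), with EIF4A2, EIF4E and EIF3S9 (diamonds), under the reported and 15 alternative settings of the processing (rows). The red points lie between -0.43 and -0.10 and the grey points near 0. The mean of a gene's probes is the setting that moves EIF4A2 and EIF4E most, to 0.83 and -0.36.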

How the data were processed

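The scans were read with Agilent Feature Extraction 8.1.1.1, per the file headers. Deposited intensity values were each spot's mean brightness and its local background, uncorrected, and a second set of intensity values that the software had background-subtracted and dye-normalized, per the file headers. A deposited log10 ratio came from that second set, per the file headers, and other deposited columns were quality flags. The authors also deposited, in duplicate with identical values, a linear ratio and a p-value for single probes, whose making is not given in the sources used here.

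In R 4.3.3 with limma 3.58.1 and data.table (version 1.17.8), background correction used normexp and an offset of 50, which shrinks ratios of dim probes, and loess was run within each array. Control and outlying spots were left out and saturated spots kept. Ratios were turned to farnesol over vehicle by the dyes in the labels, spots were averaged per probe, then both arrays of a replicate. Tested probes lay well above background in the channel of either farnesol or vehicle on 1 or both arrays of every replicate, and each gene was taken at its brightest probe. The test covered 28594 features, 17871 of them with gene symbols. limma's moderated test of the mean against 0 was two-sided, with Benjamini-Hochberg adjustment, a threshold of 0.05, 1 residual degree of freedom and 1.81 added by moderation. SD is over the 2 replicates, whose p-values measure only the spread between these duplicate experiments. The fit was tested on simulated data for the signs of calls by size and for the mean estimates, with no condition set on limma's adjusted p. The number of arrays limits the precision.

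Values on each array are given for genes past 1.5-fold in 1 direction in both replicates and on all 4 arrays, for the 5 with the largest mean in each direction, for the core of each complex and for genes whose probes differ by 1 or more. From other lists, the genes past the 1.5-fold rule and the 2 with the largest mean are named. The other genes named with a value have it as a description. The initiation factors and the lists were chosen with earlier results of these data known. The reference tables supplied were of the mouse and were not used here, so no position or sequence is given. The alternatives changed the background, normalization, filter, probe rule, saturated spots, moderation, dye orientation and replicates.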

Additional observations from a re-analysis of the deposited data

How the results depend on the processing

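No initiation factor passed limma's adjusted threshold as reported or under any alternative that gave a test. The lowest adjusted limma p was 0.0505 without the offset and 0.0592 with the scanner software's processed signals, both for EIF4A2. With arrays centred on the median instead of loess it was 0.0634, the same for EIF4A2 and EIF3S9. The number of features passing over the whole array was 3 as reported, 65 without the offset, 60 with processed signals, 32 with trended and robust moderation, 25 with median centring, 15 with the arrays of farnesol in Cy3 alone, 5 with those in Cy5 alone, and 2 without saturated spots or with probes averaged per gene. Under the 2-fold rule 2 genes were counted, EIF4A2 and EIF3S9. The genes at least 1.5-fold lower were 6 with median centring and 3 to 11 with a replicate left out, 11 without replicate 1 and 3 without replicate 2, where 4.67% and 2.40% of all features were lower by that rule in the replicate kept. They were 2 with probes averaged per gene, EIF3S9 and EIF4ENIF1, where 1.07% of all features were lower by that rule. With processed signals they were 4, EIF2B4 being added, where 2.64% of all features were lower. Those at least 1.5-fold higher were 2 probes, both of EIF4A2, with every probe on its own, where 1.23% of all tested probes were higher. Median centring placed 2.49% of features at least 1.5-fold lower and 1.03% higher, against 1.43% and 1.26% as reported, and 53.1% below 0 against 44.2%. It also turned EIF2B2 (-0.158), EIF3S4 (-0.111), EIF2C2 (-0.0420) and EIF4E3 (-0.022) from above to below 0. This left 39 of the 43 genes below 0, against 35 as reported, and the cause was not tested.

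The median of the initiation factors was -0.43 with median centring, where features of the array at or above their median brightness had -0.25, and -0.20 without the offset. It was -0.38 without replicate 1 and -0.10 without replicate 2. EIF4A2 ranged from 0.83 with the mean of its probes to 1.59, and EIF3S9 from -1.27 to -1.01. EIF4E was -0.36 with the mean of its probes, and EIF4ENIF1 ranged from -1.14 to -0.66. The reported test is itself paired, since each ratio is taken between the matched farnesol and vehicle RNAs of a replicate, which leaves no further block. With a replicate left out there was no test. With 2 replicates, a gene's own SD is estimated from a single difference, and signal near background limits the dim probes.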
